A study of Homo sapiens with 6 samples.

Results

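The LIM homeobox genes were examined in Conventional and Reset cultures of the H9 human embryonic stem cell line for where CpG methylation was gained and where it was lost. The members were the 10 genes LHX1, LHX2, LHX3, LHX4, LHX5, LHX6, LHX8, LHX9, ISL1 and ISL2, of 19819 protein-coding genes on chromosomes 1 to 22 and X in the GENCODE annotation of GRCh37. They are listed by name, with no threshold on methylation. For each gene the promoter comprised 1000 bp before and 500 bp after the start of its canonical transcript, the body ran from there to the gene end, and tiles of 500 bp were laid from 10 kb upstream of the start to the gene end.

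Whole-genome bisulfite sequencing, which reads methylated and unmethylated cytosines from converted DNA, was available for 3 Conventional and 3 Reset libraries. Conventional cells were grown in FGF/KSR, a serum-replacement medium with bFGF. Reset cells came from H9 transfected with doxycycline-inducible NANOG and KLF2, were induced with DOX in N2B27 with PD0325901 (a MEK inhibitor), CHIR99021 (a GSK3 inhibitor) and human LIF, and were then moved, after DOX withdrawal, to the same inhibitors and LIF with the PKC inhibitor Gö6983 (t2iL+Gö). Both groups were kept on mouse embryonic fibroblast feeders at low oxygen. The transgenes, the passage as single cells and the medium changed together with the state, so their parts cannot be told apart, and the share of feeder DNA in the libraries was not tested. Whether the 3 Reset libraries stem from separate resettings is not given in the sources used here, so p-values measure the spread between these libraries.

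LIM homeobox genes encode transcription factors with a pair of LIM domains, which bind cofactors, and a homeodomain, which binds DNA. They act through a complex built on the LIM domain-binding protein LDB1, and LIM-only proteins of the LMO family compete for that cofactor. The family specifies neurons and organs of the embryo, and its members fall into paralogous pairs (LHX1 and LHX5, LHX3 and LHX4, LHX2 and LHX9, LHX6 and LHX8, ISL1 and ISL2). In pluripotent cells developmental homeobox genes of this kind commonly lie in broad CpG-rich stretches with little DNA methylation.

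The stretches that gained methylation differed in CpG density and in place, and 5 of them are printed to show what kinds of sequence were involved. Each is the 200-base window with the most CpGs in the tile with the largest rise of its gene, among windows without annotated untranslated sequence. Bases were read from the GRCh37 sequence in the direction of the gene, with every CpG in capitals. The windows lie at chr9:126777628-126777827 (LHX2, plus strand, overlapping a coding exon), chr1:75595674-75595873 (LHX8, plus strand, intron), chr9:124981748-124981947 (LHX6, minus strand, intron), chr5:50673060-50673259 (ISL1, plus strand, upstream of the gene and inside ISL1-DT, a divergent transcript) and chr1:197889524-197889723 (LHX9, plus strand, intron).
LHX2 coding exon: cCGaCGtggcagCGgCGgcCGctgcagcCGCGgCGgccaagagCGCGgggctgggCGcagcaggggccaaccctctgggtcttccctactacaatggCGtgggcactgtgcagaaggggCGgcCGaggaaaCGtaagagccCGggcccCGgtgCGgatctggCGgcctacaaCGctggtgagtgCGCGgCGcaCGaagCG
LHX8 intron: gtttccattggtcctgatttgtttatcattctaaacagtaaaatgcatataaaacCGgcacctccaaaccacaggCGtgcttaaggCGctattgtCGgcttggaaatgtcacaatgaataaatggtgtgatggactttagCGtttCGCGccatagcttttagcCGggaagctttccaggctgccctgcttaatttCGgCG
LHX6 intron: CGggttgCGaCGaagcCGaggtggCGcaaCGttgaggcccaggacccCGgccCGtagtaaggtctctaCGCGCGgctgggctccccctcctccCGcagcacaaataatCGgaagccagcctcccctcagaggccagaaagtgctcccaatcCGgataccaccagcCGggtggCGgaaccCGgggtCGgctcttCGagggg
ISL1 upstream: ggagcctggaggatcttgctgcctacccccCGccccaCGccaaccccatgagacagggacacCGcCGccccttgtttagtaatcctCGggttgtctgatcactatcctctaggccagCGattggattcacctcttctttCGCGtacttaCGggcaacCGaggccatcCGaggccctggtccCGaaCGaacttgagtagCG
LHX9 intron: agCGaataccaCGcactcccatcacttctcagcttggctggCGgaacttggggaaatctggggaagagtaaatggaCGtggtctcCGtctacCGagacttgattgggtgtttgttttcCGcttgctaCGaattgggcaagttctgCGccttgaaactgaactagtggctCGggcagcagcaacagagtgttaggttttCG

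The LHX2 window holds 25 CpGs, the LHX6 window 19, the ISL1 window 14, the LHX9 window 11 and the LHX8 window 10. In the LHX2 window 0, 10.5 and 0% of calls were methylated in the Conventional libraries and 73.7, 85.1 and 86.4% in the Reset libraries. The LHX8 window had no methylated call among 73 in Conventional cells, which allows a level of up to 4.11%, and stood at 85.0, 60.7 and 54.8% in the Reset libraries. In the ISL1 window none of 157 Conventional calls was methylated, which allows up to 1.91%, and the Reset libraries were at 72.4, 62.7 and 63.0%. All 79 CpGs of the 5 windows had a higher pooled level in Reset cells. Most had no methylated Conventional call, so any methylated Reset call made them higher. The median pooled Reset level of the CpGs in a window was 63.6 to 80%. Coding sequence, introns and sequence upstream of a gene were all among the windows, at CpG numbers from 10 to 25. These windows were picked for their rise, so their levels are a description.

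A window that did not gain methylation is printed for contrast, chosen after its values had been seen. It covers the 200 bases up to the canonical start of ISL1 (chr5:50679082-50679281, plus strand), again with CpGs in capitals.
ISL1 start: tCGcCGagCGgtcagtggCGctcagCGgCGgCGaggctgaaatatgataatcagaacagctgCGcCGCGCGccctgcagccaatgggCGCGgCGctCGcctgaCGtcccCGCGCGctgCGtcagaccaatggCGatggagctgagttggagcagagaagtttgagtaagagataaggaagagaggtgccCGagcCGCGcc

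This window holds 24 CpGs, close to the 25 of the LHX2 window. No Conventional call of 124 was methylated, which allows a level of up to 2.42% for counting error alone, and the Reset libraries were at 0, 1.54 and 2.27%. Only 2 of its 24 CpGs had a higher pooled level in Reset cells, although the ISL1 window printed above, which lies about 6 kb further upstream, rose at 14 of 14.

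The libraries held 92023996 to 98004161 calls in Conventional and 70329213 to 80199615 in Reset cells, or 3.28 to 3.49 and 2.51 to 2.86 calls per CpG. Over all calls 84.3 to 84.6% were methylated in Conventional and 29.5 to 30.3% in Reset libraries, so a feature that followed the genome lost most of its methylation. At this depth single CpGs were not tested, and the counts of CpGs with a higher pooled level given for the printed windows are a description. Levels were taken as methylated calls over all calls of a feature with at least 10 calls in every library. Groups were compared with a quasi-binomial logistic model fitted over all features of a kind, the dispersion squeezed by limma, and Benjamini-Hochberg adjustment over the full set. The exact permutation test of 3 libraries against 3 gives no two-sided p below 0.1. Coverage within 100 kb of the members, relative to each library's mean, gave Reset to Conventional ratios of 0.917 to 1.21, highest at LHX3.

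The 10 genes were covered by 575 tiles, of which 424 had at least 10 calls in every library. A tile was called raised where the adjusted p was under 0.05, the mean rose by at least 10 percentage points and every Reset library lay above every Conventional library, and lowered where the reverse held. By this rule 124 member tiles were raised (29.2%) and 175 were lowered (41.3%). Among 1253019 tiles of all genes, 0.592% were raised and 92.7% lowered. The balance within the members depended on the setting. With a minimum of 20 calls 95 member tiles were raised and 58 lowered, and with tiles of 1000 bp 69 and 131. Shares over all genes were not counted at these settings, so the shift in balance is not set against other genes. Raised tiles of the members had a median level of 2.01% in Conventional and 40.3% in Reset cells. Of the 10 genes, 9 held at least 1 raised tile, with LHX3 as the exception, and 13.6% of all genes did. LHX9 held 25 raised tiles, LHX2 20, ISL1 17, LHX5 16, LHX6 12, ISL2 11, LHX8 10, LHX1 8 and LHX4 5. A count of 25 or more was reached by 15 of 19594 genes with a tested tile. Because nearly all tiles changed, the adjustment was mild and unadjusted p-values up to 0.0475 passed. With an adjusted p under 0.001, a threshold added after seeing the data, 102 member tiles and 0.381% of all tiles were raised. Each library was also left out in turn, and 112 of the 124 tiles were raised in all 6 of those fits.

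**Figure D1:**
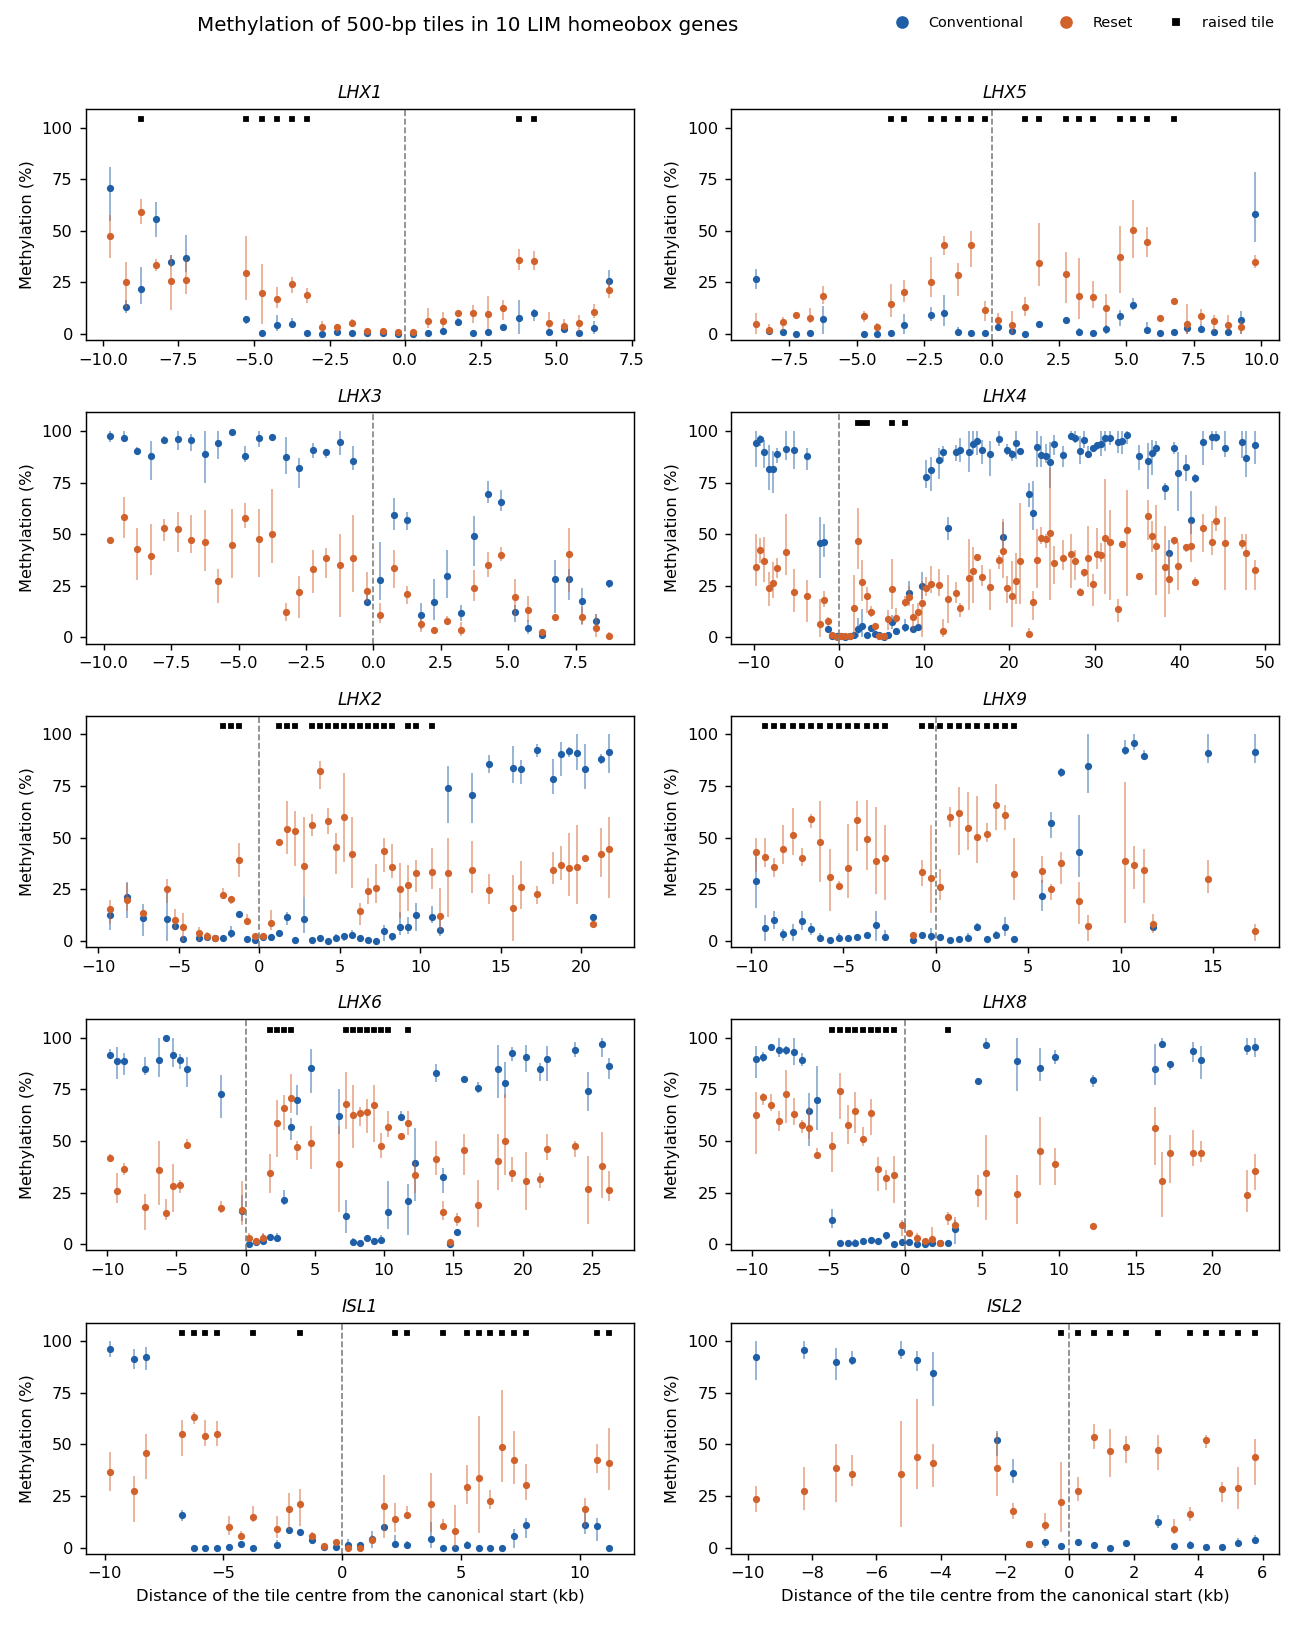
Methylation level (%) of each tested 500-bp tile against the distance of its centre from the canonical start (kb, positive in the direction of transcription), for the 10 genes. Points are means of 3 Conventional or 3 Reset libraries, vertical lines run from the lowest to the highest library, black squares mark the 124 raised tiles and the dashed line is the start. Raised tiles lie within 12 kb of the start in 9 genes, mostly away from the start itself, and LHX3 has no raised tile.

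The calls of the members differed with the level the tile had in Conventional cells. The rule fixes part of this in advance. A tile under 10% cannot fall by 10 points, and a nearly fully methylated tile cannot rise by as much. Of the member tiles under 20% in Conventional cells, 120 of 226 (53.1%) were raised and 1 was lowered, where 10.1% of such tiles over all genes were raised. Among low tiles with at least 25 CpGs, 47 of 110 (42.7%) were raised, against 6.6% over all genes. These shares are not matched for distance from the start. Within 0.5 kb of it lay 19 of the 226 low member tiles and 25263 of 68440 over all genes. There 3.16% of the low tiles over all genes were raised. The low member tiles went from a median of 1.64% to 18.7%, with Reset quartiles of 6.66 and 40.6%. The 106 low tiles that were not raised had a median of 6.21% in Reset cells. Of the tiles at 80% or more in Conventional cells, 139 of 140 were lowered, as were 99.3% of such tiles over all genes. Those 140 tiles went from a median of 90.8% to 37.7%, and the corresponding tiles of all genes from 93.3 to 37.1%. The raised tiles, which were selected for their rise, had a median of 40.3% in Reset cells, close to the 37.7% to which the highly methylated tiles fell.

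**Figure D2:**
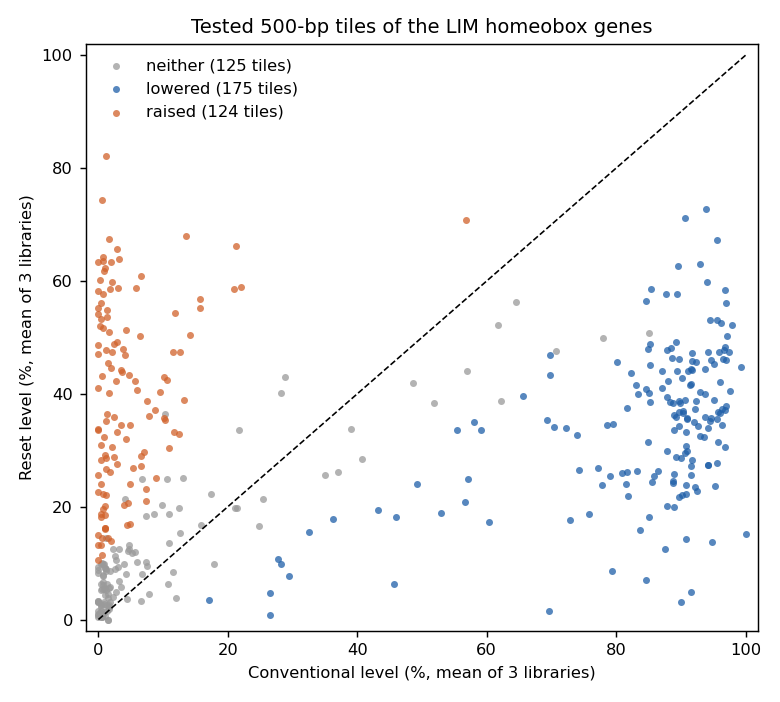
Mean level of the 3 Reset libraries (%) against the mean of the 3 Conventional libraries (%) for 424 tested tiles of the 10 genes, coloured by call. The 124 raised tiles (orange) sit mainly at the left edge, the 175 lowered tiles (blue) mainly at the lower right, and the dashed line marks equal levels.

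LHX1 and LHX5 form the first pair. LHX1 (chr17:35294084-35301912, plus strand) acts in the head organizer and the kidney, and LHX5 (chr12:113899838-113910085, minus strand) in the developing forebrain. Around the LHX1 start all tested tiles were under 20% in Conventional cells from 5.5 kb upstream to 6.5 kb downstream, and 7 of the 24 were raised. These lay at the flanks: a run of 5 tiles from 5.5 to 3.0 kb upstream, within the divergent transcript LHX1-DT, stood at 4.28, 4.63 and 3.46% in the Conventional and 27.6, 18.9 and 21.6% in the Reset libraries. A run of 1 kb from 3.5 to 4.5 kb downstream went from 8.69% ± 4.50 to 35.7% ± 4.30 (SD, n = 3). The tile with the largest rise, 9 kb upstream, went from 21.98% ± 9.38 to 59.0% ± 6.05 (SD, n = 3), and the tile next to it fell from 55.5% ± 8.56 to 33.6% ± 3.06 (SD, n = 3).

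In LHX5 the low stretch ran from 8.5 kb upstream to 9.5 kb downstream, and 16 of its 32 tiles were raised. A run of 2.5 kb ended at the start itself and stood at 2.65, 2.37 and 1.82% in the Conventional and 23.5, 30.5 and 23.2% in the Reset libraries. Its tile from 1000 to 500 bp upstream, which overlaps the antisense gene LHX5-AS1, went from 0.605% ± 0.527 to 43.1% ± 9.25 (SD, n = 3) over 35 CpGs. Further runs lay inside the gene, the strongest from 4.5 to 6.0 kb downstream, which went from 9.55% ± 1.83 to 42.2% ± 6.42 (SD, n = 3). Over the promoter LHX5 gained methylation and LHX1 hardly did. The promoter of LHX5 stood at 1.85, 1.504 and 1.14% in the Conventional libraries and at 14.0, 20.8 and 14.5% in the Reset libraries, with no overlap (adjusted p = 1.909e-06). With 500 bp on either side of the start the LHX5 rise was smaller, at 7.09 points (adjusted p = 0.00206). The LHX5 tile that ends at the start was no longer raised without Reset replicate 2 (8.66 points). The promoter of LHX1 was at 0, 0.270 and 0.297% in the Conventional libraries. In Reset cells it was at 1.06, 0.743 and 1.67%, a difference of 0.970 points (adjusted p = 0.0329). That call was lost without Conventional replicate 1 (0.876 points) and, among the Reset libraries, without replicate 1 (1.02 points) or 3 (0.714 points), and for a promoter of 500 bp on either side of the start (1.04 points). The bodies of both genes rose, LHX1 from 3.11% ± 1.46 to 9.92% ± 1.90 (adjusted p = 1.193e-06) and LHX5 from 4.62% ± 0.101 to 15.6% ± 2.34 (SD, n = 3, adjusted p = 2.462e-10).

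LHX3 and LHX4 act together in the pituitary and in motor neurons. LHX3 (chr9:139088096-139096974, minus strand) had the most methylated promoter of the 10 in Conventional cells, and none of its tiles was raised. The 9 LHX3 tiles under 20% in Conventional cells went from a median of 11.9% to 6.36%, and 1 of them was lowered. Its promoter stood at 23.3, 40.7 and 32.2% in the Conventional and 22.9, 17.9 and 13.5% in the Reset libraries, so the lowest Conventional library lay barely above the highest Reset library (adjusted p = 0.0213). The call was lost without Conventional replicate 2 (-9.64 points) or Conventional replicate 3 (-13.9 points) and, among the Reset libraries, without replicate 2 (-13.8 points) or 3 (-11.7 points). It was also lost for a promoter of 500 bp on either side of the start (-8.75 points, adjusted p = 0.278), and with 2000 bp before the start the change was -28.7 points (adjusted p = 0.000199). All 18 tiles upstream of the promoter were lowered, from a median of 94.4% to 45.6%, and 91.1% of upstream tiles over all genes were lowered. The largest fall, in a tile from 3.5 to 3.0 kb upstream that overlaps QSOX2, went from 87.6% ± 8.98 to 12.52% ± 4.35 (SD, n = 3). The body fell from 21.5% ± 2.53 to 12.1% ± 1.14 (SD, n = 3, adjusted p = 2.843e-07).

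LHX4 (chr1:180199399-180248119, plus strand) kept a low start. Its promoter was at 1.85, 0 and 0% in the Conventional and 0, 1.02 and 0.912% in the Reset libraries, and the groups overlapped (adjusted p = 0.984). With 2000 bp before the start it was lower in Reset cells, at a change of -6.38 points (adjusted p = 0.000497). The low stretch ran from 1.5 kb upstream to 8 kb downstream and held 5 raised tiles of 18. A run of 3 intron tiles from 2.0 to 3.5 kb downstream stood at 2.02, 2.96 and 1.11% in the Conventional and 29.1, 15.2 and 31.7% in the Reset libraries. Further out the locus was highly methylated in Conventional cells and lost much of it: 55 of 56 tiles at 80% or more were lowered, and the body fell from 55.2% ± 1.70 to 26.3% ± 0.694 (SD, n = 3, adjusted p = 1.299e-18). The largest fall, in an intron tile 12 kb downstream, went from 90.0% ± 4.20 to 3.03% ± 5.25 (SD, n = 3). Of its 75 tested body tiles 5 were raised and 53 lowered, and over all genes 0.411% of body tiles were raised and 95.6% lowered.

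LHX2 and LHX9 held the largest numbers of raised tiles. LHX2 (chr9:126763949-126795580, plus strand) is needed for the eye and the cerebral cortex, and LHX9 (chr1:197881032-197904608, plus strand) for the gonad. In LHX2 a low stretch of 19 kb around the canonical start held 20 raised tiles of 34. A run of 11 tiles from 3.0 to 8.5 kb downstream, over exons and introns, stood at 0.982, 1.60 and 1.67% in the Conventional and 42.7, 51.9 and 42.3% in the Reset libraries. It includes the tile with the largest mean Reset level of all 124 raised tiles, which went from 1.23% ± 1.56 to 82.1% ± 7.66 (SD, n = 3) over 42 CpGs and holds the LHX2 window printed above. The next tile, an intron tile with no methylated call among 221 in the Conventional libraries (a limit of 1.36%), was at 59.0, 64.1 and 51.6% in the Reset libraries. The promoter between the runs stayed low, at 1.47, 0.926 and 0% in the Conventional and 3.16, 3.89 and 4.85% in the Reset libraries (adjusted p = 0.00751). That call was lost for a promoter of 500 bp on either side of the start (1.56 points, adjusted p = 0.128), and with 2000 bp before the start the rise was 6.67 points (3.17 with 1000). The body rose from 23.7% ± 1.38 to 35.9% ± 2.58 (SD, n = 3, adjusted p = 2.387e-09), although its last part was lowered: all 10 LHX2 tiles at 80% or more fell, and a tile 17 kb downstream went from 92.6% ± 3.35 to 22.7% ± 4.61 (SD, n = 3).

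In LHX9 nearly the whole low stretch gained methylation, with 25 of 26 tiles raised between 9.5 kb upstream and 4.5 kb downstream. A run of 7 kb, which begins outside the gene and enters its longer transcripts, stood at 2.76, 3.13 and 4.84% in the Conventional and 33.3, 45.2 and 50.2% in the Reset libraries. The other run, of 5.5 kb, spans the canonical start and was at 2.33, 2.07 and 2.63% in the Conventional and 49.0, 48.2 and 49.0% in the Reset libraries. The start of LHX9 thus lay inside a raised run. Its promoter stood at 1.73, 2.41 and 2.66% in the Conventional and 27.5, 25.5 and 41.4% in the Reset libraries (adjusted p = 1.612e-06), the largest rise among the 10 promoters at these bounds. With 2000 bp before the start LHX8 rose more, by 21.6 points against 18.7. The body rose from 31.0% ± 2.52 to 39.96% ± 1.43 (SD, n = 3, adjusted p = 5.23e-05), with 8 tiles raised and 9 lowered, so the net change of the body summed tiles that moved in opposite directions. The 7 LHX9 tiles at 80% or more went from a median of 91.0% to 34.2%.

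LHX6 and LHX8 act in the ventral forebrain, LHX6 in cortical interneurons and LHX8 in basal forebrain cholinergic neurons. In LHX6 (chr9:124964856-124991905, minus strand) the low stretch around the start was short, from 0.5 kb upstream to 2.5 kb downstream. The promoter did not pass the threshold, at 7.56, 15.7 and 4.41% in the Conventional and 7.26, 11.6 and 5.47% in the Reset libraries (adjusted p = 0.939). With 2000 bp before the start it passed, at -13.3 points (adjusted p = 0.00499). Of its 12 raised tiles 11 lay in a pair of runs inside the gene. The stronger, 7 tiles from 7.0 to 10.5 kb downstream, stood at 3.02, 3.77 and 3.01% in the Conventional and 61.9, 55.9 and 64.6% in the Reset libraries. The other, from 1.5 to 3.5 kb downstream, went from 21.8% ± 6.46 to 58.1% ± 4.60 (SD, n = 3). The remaining raised tile, at an exon from 11.5 to 12.0 kb downstream, went from 20.9% ± 14.3 to 58.6% ± 5.79 (SD, n = 3). All 10 tested tiles upstream of the promoter were lowered, as were 91.1% of upstream tiles over all genes. Of the 10, 1 tile 6 kb upstream went from 100% in each Conventional library to 11.8, 11.8 and 21.7% in the Reset libraries. The body as a whole rose by 3.20 points, from 37.1% ± 1.34 to 40.3% ± 1.69 (SD, n = 3, adjusted p = 0.0231). That call was lost without Conventional replicate 3 (2.53 points) or Reset replicate 3 (2.23 points).

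In LHX8 (chr1:75594119-75627218, plus strand) the gain was upstream of the canonical start, within the transcribed span of longer transcripts and beside other annotated transcripts. A run of 9 tiles from 5.0 to 0.5 kb upstream stood at 2.34, 2.86 and 2.80% in the Conventional and 57.9, 51.9 and 47.6% in the Reset libraries. The level fell off toward the start: the promoter was at 0.568, 1.44 and 0.800% in the Conventional and 9.24, 15.3 and 12.6% in the Reset libraries (adjusted p = 8.434e-05). Among its body tiles 1 was raised and 13 were lowered, and the body fell from 48.6% ± 2.59 to 20.7% ± 1.55 (SD, n = 3, adjusted p = 3.237e-13). Of its tested tiles upstream of the promoter 8 were raised and 8 lowered, and over all genes 1.12% of upstream tiles were raised and 91.1% lowered.

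ISL1 and ISL2 encode the islet proteins, ISL1 acting in motor neurons, heart progenitors and the endocrine pancreas, and ISL2 in motor neurons and retinal ganglion cells. In ISL1 (chr5:50679282-50690564, plus strand) the low stretch ran from 7.0 kb upstream to 11.5 kb downstream, with 17 of 31 tiles raised. The run of 4 tiles from 7.0 to 5.0 kb upstream, inside ISL1-DT, was at 1.59, 1.58 and 1.79% in the Conventional and 56.9, 57.0 and 58.4% in the Reset libraries. A run of 6 tiles from 5.0 to 8.0 kb downstream was at 1.37, 1.27 and 2.09% in the Conventional and 30.5, 33.1 and 30.1% in the Reset libraries. Between these runs the promoter stayed at 0.495, 1.85 and 0.524% in the Conventional and 0.676, 1.49 and 1.21% in the Reset libraries, and the groups overlapped (adjusted p = 0.758). The body rose from 3.35% ± 0.929 to 20.6% ± 1.87 (SD, n = 3, adjusted p = 1.3e-11).

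ISL2 (chr15:76629114-76634816, plus strand) was raised across its start and throughout its body. Of the 14 tiles of its low stretch 11 were raised, and among the 10 tested body tiles 9 were raised and 0 lowered. The run from 0.5 kb upstream to 2.0 kb downstream stood at 1.93, 1.62 and 1.28% in the Conventional and 42.3, 46.2 and 37.8% in the Reset libraries. The promoter was at 2.53, 1.80 and 2.29% in the Conventional and 15.4, 29.9 and 17.5% in the Reset libraries (adjusted p = 3.173e-05). The body rose from 1.98% ± 0.541 to 38.5% ± 4.16 (SD, n = 3, adjusted p = 9.921e-17), the largest rise among the 10 bodies. All 7 upstream ISL2 tiles at 80% or more were lowered, from a median of 91.1% to 35.7%.

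Over the 10 promoters, 6 were higher in Reset cells (LHX1, LHX2, LHX5, LHX8, LHX9 and ISL2), 1 was lower (LHX3) and 3 did not pass the threshold (LHX4, LHX6 and ISL1). The tally depended on the bounds: with 500 bp before the start 4 were higher and 0 lower, and with 2000 bp 6 were higher and 3 lower (LHX3, LHX4 and LHX6). The count of lower promoters was also 0 without Conventional replicate 2 or 3 or Reset replicate 2 or 3. Of the 19300 promoters tested over all genes, 3.98% were higher and 67.3% lower. These shares are for 1000 bp before the start, and none were counted at the other bounds. The median change was 2.07 points over the members and -9.59 points over all promoters, and the median Conventional level was 1.23% and 15.4%. The size differed widely within the 6, from under 1 point at LHX1 to 29.2 points at LHX9, and it too depended on the bounds. With 500 bp before the start in place of 1000, the rise was 7.09 points at LHX5 (14.9 with 1000) and 6.01 points at LHX8 (11.5). With 2000 bp it was 21.6 points at LHX8, 18.7 points at LHX9 and 5.95 points at ISL2 (18.7 with 1000), and at LHX1 it was 1.49 points (0.970 with 1000). Over the bodies 7 were higher and 3 lower (LHX3, LHX4 and LHX8), with no overlap between the groups in any of the 10. Over all genes 1.11% of 19182 bodies were higher and 97.8% lower. The groups were also free of overlap in 18756 of these bodies with Reset lower and in 216 with Reset higher. The lack of overlap therefore does not set the member bodies apart. The median change was 7.87 points over the member bodies and -51.2 points over all bodies. The member bodies began at a median of 22.6% in Conventional cells and all bodies at 87.5%, and how far the low start accounts for the difference was not tested.

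**Figure D3:**
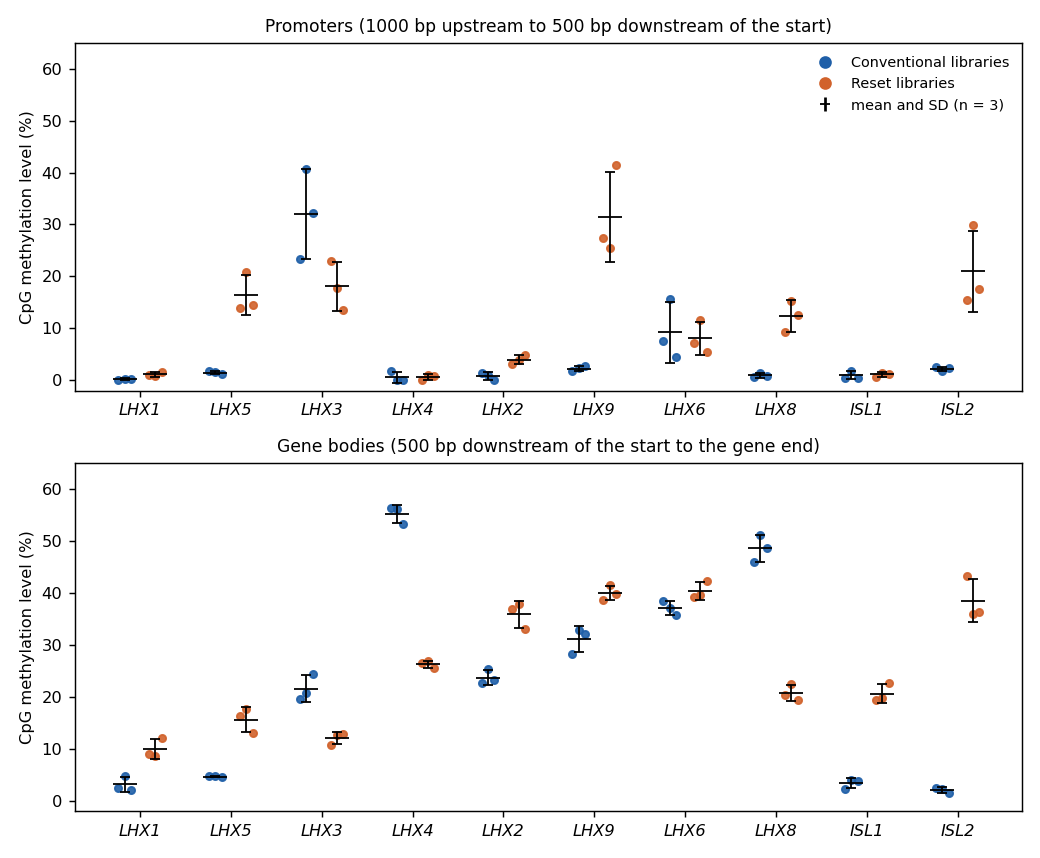
CpG methylation level (%) of the promoter (upper panel) and body (lower panel) of each gene, with 1 point per library and the mean and SD of 3 libraries per group. LHX9, ISL2, LHX5 and LHX8 have the largest promoter rises and LHX3 the single fall past the threshold at these bounds, and in the bodies Reset libraries lie above Conventional libraries in 7 genes and below them in LHX3, LHX4 and LHX8.

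The gain was least frequent at the start. Of the low member tiles within 0.5 kb of the canonical start, 5 of 19 (26.3%) were raised, with a median Reset level of 5.22%. The share was 63.6% (28 of 44) from 2 to 5 kb downstream and 60.0% (27 of 45) from 5 to 1 kb upstream. Low tiles of all genes had their lowest share at the same place, 3.16% within 0.5 kb of the start, and 28.4% from 2 to 5 kb downstream and 16.5% from 5 to 1 kb upstream. Low member tiles with 10 to 19 CpGs were raised in 67.3% and those with 40 or more in 23.3%, and over all genes these shares were 17.3 and 4.02%. The raised low tiles of the members had a median of 20 CpGs and the others 30, with a GC content of 55.3 and 59.0%. Coding sequence was present in 30 of the 120 raised low tiles and in 30 of the 106 others. Neighbouring tiles share fragments and base composition, so these shares describe the tiles and carry no test.

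**Figure D4:**
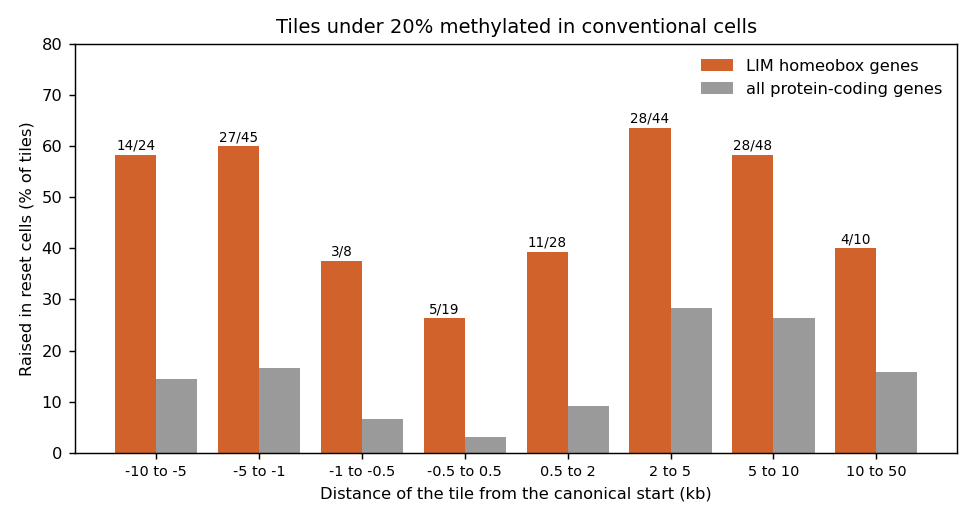
Share of tiles under 20% in Conventional cells that were raised in Reset cells (%), by distance from the canonical start (kb), for the 10 LIM homeobox genes (orange, with raised over all low tiles printed above each bar) and all protein-coding genes (grey). Both series are lowest within 0.5 kb of the start, at 26.3 and 3.16%.

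Most raised tiles of the members adjoined another. Of the 124, 113 lay in 23 runs of at least 2 adjacent tiles in 9 genes, and 11 stood alone. Runs were not counted over all genes, and neighbouring tiles share fragments, so these counts are a description. The longest were the 7.0 and 5.5 kb runs of LHX9, the 5.5 kb run of LHX2, the 4.5 kb run of LHX8 and the 3.5 kb run of LHX6. A run was drawn around tiles already called raised, so its level is a description.

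Few tiles kept their methylation. Of the member tiles at 50% or more in Conventional cells, 3 of 172 still had 80% or more of it in the Reset mean. Over all genes 3848 of 1155238 did (0.333%), a smaller share. The LHX8 tile, 6.5 kb upstream of the start, was at 73.3, 47.8 and 72.6% in the Conventional and 66.7, 51.1 and 50.8% in the Reset libraries, and the groups overlapped (adjusted p = 0.382). The LHX8 tiles from 10 to 6.5 kb upstream were called lowered and missed this cut. Their means were 89.4 to 95.6% in Conventional and still 57.6 to 72.7% in Reset cells. An LHX6 intron tile 11 kb downstream went from 61.8% ± 2.56 to 52.2% ± 0.392 (SD, n = 3, adjusted p = 0.267). The other LHX6 tile, 3 kb downstream with 34 CpGs, was also raised, from 59.0, 61.0 and 50.4% to 66.7, 63.5 and 82.4% (adjusted p = 0.0177). That call was lost without Conventional replicate 3 (10.9 points, adjusted p = 0.133) or Reset replicate 3 (8.32 points, adjusted p = 0.114).

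Relatives and partners of the LIM homeobox proteins were examined as a list of 12: the related LIM homeobox genes LMX1A and LMX1B, the LIM-only genes LMO1 to LMO4, the cofactor genes LDB1 and LDB2, the single-stranded DNA-binding proteins SSBP2, SSBP3 and SSBP4 that stabilize the LDB complex, and the ubiquitin ligase gene RLIM. Of the 12 promoters 4 were lower (LMO1, LMO2, SSBP4 and RLIM) and 2 higher (LMO3 and LDB2), where 67.3% of all promoters were lower and 3.98% higher. All 12 bodies were lower, from a median of 72.8% to 28.6%, as were 97.8% of all bodies. LMO3 rose from 0.972% ± 0.733 to 12.4% ± 5.76 (SD, n = 3, adjusted p = 0.000224) and LDB2 from 6.75% ± 1.89 to 30.2% ± 2.24 (SD, n = 3, adjusted p = 5.139e-05). The promoter of LDB1, the common cofactor, was at 1.02, 2.55 and 1.02% in the Conventional and 0.505, 1.89 and 0.862% in the Reset libraries (adjusted p = 0.679). RLIM, which lies on the X chromosome, fell from 45.4% ± 20.4 to 1.95% ± 1.39 (SD, n = 3, adjusted p = 6.964e-06), with a wide spread in Conventional cells. Bodies of LMX1A and LMX1B, the closest relatives in the list, were at 68.8 and 49.2% in Conventional cells and fell to 34.2 and 24.2%. The members whose bodies began at similar levels fell too, LHX4 from 55.2 to 26.3% and LHX8 from 48.6 to 20.7%, and the 7 that rose began at 1.98 to 37.1%. The LHX3 body, which began within the range of those 7, fell from 21.5 to 12.1%. The part of the starting level was not tested.

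The PAX genes, another family of developmental regulators, were counted in the same way for comparison. Of the 9 PAX promoters 5 were higher and 1 lower (3.98 and 67.3% over all genes), and of the 9 bodies 2 were higher and 6 lower (1.11 and 97.8% over all genes). Of their tiles under 20% in Conventional cells, 140 of 254 (55.1%) were raised, beside 120 of 226 (53.1%) in the LIM homeobox genes and 10.1% over all genes. With at least 25 CpGs the shares were 41.6, 42.7 and 6.6%. Raised tiles were thus present at similar shares among the low tiles of both families, and the difference between the families was not tested. The shares over all genes were not matched for distance from the start.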

How the data were processed

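Genomic DNA from 3 Conventional and 3 Reset H9 cultures had been sonicated, ligated to methylated adapters, bisulfite treated and amplified. Per the labels, reads were trimmed with Trim Galore and aligned to GRCh37 with Bismark and Bowtie2 (Bismark 0.9.0 in the submitters' processing notes; the paper's methods name another version). The deposited files hold, per library and CpG cytosine, raw counts of methylated and of unmethylated calls. A step that removes duplicate reads is not given in the sources used here, and limits drawn from a count of 0 (3 counts of the total) cover counting error only.

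Positions lay at a CpG of GRCh37 in 99.8% of cases when counted from 0 and in 51.0 to 51.1% when counted from 1. Coordinates in the text start at 1. Calls on both strands of a CpG were summed over 27999103 CpGs of chromosomes 1 to 22 and X, and 84.95 to 89.2% of these had a call. Genes came from GENCODE release 44 lifted to GRCh37, with 1 canonical transcript per gene. Levels were compared for promoters, bodies and 500-bp tiles with at least 10 calls in every library, by a quasi-binomial logistic model with the Pearson dispersion squeezed by limma 3.58.1 (R 4.3.3) and kept at 1 or more, an F test and Benjamini-Hochberg adjustment at 0.05 over all features tested. The code was checked on simulated calls. SD is over libraries. Alternatives were minimums of 5 and 20 calls, other promoter bounds, tiles of 1000 bp, tiles shifted by 250 bp, a change of 20 points, Fisher's exact test on pooled calls, no floor on the dispersion, a replicate block, and each library left out.

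The 10 members, the list of 12 relatives and partners and the 9 PAX genes were chosen with earlier results of these data known, as were the tests. The named genes were all members with promoter and body, and per member the 3 raised tiles with the largest rise, the lowered tile with the largest fall and runs of at least 2 adjacent raised tiles, of which the report gives those that matter most. Non-CpG calls were not analysed here.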

Additional observations from a re-analysis of the deposited data

How the results depend on the processing

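Of 130 promoter changes recomputed under the alternatives, 117 stayed on the same side of the threshold, as did 118 of 120 body changes, and 97 of 106 counts stayed within 1.5 times their value. Part of this agreement was fixed in advance. All member promoters and bodies had more than 20 calls in every library, so the minimums of 5 and 20 calls left their changes as they were. Dropping the dispersion floor, or ending bodies at the canonical transcript end, also left the changes as they were. Among the 117, changes at the LHX4, LHX6 and ISL1 promoters, which did not pass the threshold, took either sign. The 1 member promoter called lower, LHX3, depends on the setting. With the replicate block the count was 0 (adjusted p = 0.0688 for LHX3), for promoters of 500 bp on either side of the start it was 0, for those that begin 2000 bp upstream it was 3, and it ranged from 0 to 1 when single libraries were left out (0 without Conventional replicate 2 or 3 or Reset replicate 2 or 3). With the 2000 bp bounds the LHX4 promoter changed sign, to -6.38 points (adjusted p = 0.000497), and the LHX6 promoter passed the threshold at -13.3 points. The sizes of the fall at the LHX3 promoter and of the rises at LHX1, LHX2, LHX5, LHX8, LHX9 and ISL2 moved by over 1.5 times with the bounds. With the 500 bp bounds the LHX2 promoter (1.56 points) and the LHX1 promoter (1.04 points) no longer passed it. A minimum of 20 calls left fewer tiles to test and gave 95 raised and 58 lowered member tiles in place of 124 and 175. Tiles of 1000 bp, which are fewer and longer, gave 69 raised and 131 lowered. Shares over all genes were not counted at either setting. Of the 124 raised tiles, 85 were raised in all 11 alternatives that change the minimum of calls, the test, the dispersion limit, the block or the libraries, and 98 had a change of at least 20 points.

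Replicate numbers are shared by the groups, but same-numbered libraries deviated from their group means without correlation (-0.000728 to 0.000612 over 1253019 tiles). At this depth counting noise enters such deviations, so the correlation cannot tell whether same-numbered libraries share a batch. With the replicate block 114 member tiles were raised and 170 lowered, and the LHX6 tile 3 kb downstream was no longer raised (adjusted p = 0.163). Within groups, pairs of libraries differed by more than independent calls would give (mean chi-square of 1.39 to 1.47 per tile). Calls on the same fragment are not independent, so this cannot tell whether a library repeats another. Each library was counted on its own. At 2.51 to 3.49 calls per CpG, tiles with few CpGs were often not tested, and tiles that were not raised may hold gains under 10 points.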
